A study of Caenorhabditis elegans with 2 samples.

Results

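The arms of chromosome V were described by the CHD-3 peaks they carry in a ChIP-seq peak list of Caenorhabditis elegans. Peaks of V were taken as arm peaks when their midpoint lay below 5.90 Mb (left arm) or above 16.55 Mb (right arm) on WormBase release WS220. This gave 369 peaks, 196 in the left arm and 173 in the right arm, of 857 on V and 4940 in the whole list. The other 488 peaks of V lay in the centre. The list belongs to a ChIP sample, prepared with a rabbit polyclonal antibody to CHD-3, and a sample of input DNA completes the series. Both came from hermaphrodite adults of the strain fem-2(b245), with the genotype fem-2(b245)III, at 20 °C, and both carry the replicate number 2. The allele affects a gene of the sex determination pathway and is known as temperature-sensitive. A wild-type group was not analysed here. Worms were ground whole, so occupancy in a few cells and weak occupancy in many cells cannot be told apart.

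CHD-3 is a relative of Mi-2, the helicase-like ATPase that moves nucleosomes in NuRD-type remodelling and deacetylase complexes, which act in chromatin repression in many animals. The arms of worm autosomes recombine more than the centres, hold more repeats and more chromatin methylated at lysine 9 of histone H3, and are home to fast-evolving gene families. Chemoreceptors of the seven-transmembrane class, which worms use to sense odours and tastes, are the best known of these families on V. By name, 1112 of 1628 chemoreceptor genes and pseudogenes of the sr and str families were on V in the RefSeq gene table of assembly WBcel235, which is 68.3% of them and 14.1% of the genes listed on V. That table lies on another build than the peaks, so this count is for the whole chromosome, and no gene was assigned to any peak. No sequence of a peak is given for the same reason.

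The list is 1 sample without a replicate, so no test was made between arm and centre or between the arms. Values are given with 95% intervals for counting error alone, which take each peak as independent although neighbouring peaks are not. How deeply the sample was sequenced is unknown, and no background measured in the input sample stands beside any value. The right arm was taken to end at base 20881846, the last base of the last peak of V, which gave lengths of 5.90 Mb for the left arm, 4.33 Mb for the right arm and 10.65 Mb for the centre.

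CHD-3 peaks were sparser in the arms of V than in its centre. The arms together had 36.1 peaks per Mb (95% exact Poisson interval 32.5 to 39.9), against 45.8 per Mb in the centre (41.8 to 50.1). The ratio of arms to centre was 0.787 (95% exact interval 0.686 to 0.903). The left arm had 33.2 peaks per Mb (28.7 to 38.2) and the right arm 39.9 per Mb (34.2 to 46.4), a ratio of 0.832 for left over right whose interval of 0.675 to 1.03 includes 1. With each border moved 500 kb toward the ends, the ratio of left over right was 0.749 (0.600 to 0.935). With each moved as far toward the centre it was 1.06 (0.873 to 1.28). Peaks of the arms covered 189.0 kb, or 1.85% of their length, while peaks of the centre covered 268.3 kb, or 2.52%. Counted as regions, with peaks less than 500 bp apart joined, the arms had 27.6 regions per Mb (24.4 to 31.0) and the centre 31.5 (28.3 to 35.1). The ratio was then 0.874, with an interval of 0.743 to 1.03.

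Part of the gap between arms and centre lay in a single stretch of the centre next to the left border. In 500 kb bins counted from the borders, the 19 full bins of the arms held 18 to 58 peaks per Mb with a median of 40, and the 21 full bins of the centre held 14 to 134 per Mb with the same median of 40. The range of the arm bins lay within that of the centre bins, and 5 centre bins exceeded the fullest arm bin. The bin with 134 peaks per Mb was the first of the centre, and it contained a run of 31 peaks from 6070782 to 6094654 that began 170.8 kb past the left border. Without that first 500 kb, an alternative chosen after seeing the data, the centre had 41.5 peaks per Mb and the ratio was 0.869 (0.754 to 1.00). Without only the fullest 100 kb window of V the centre had 42.9 peaks per Mb and the ratio was 0.840 (0.730 to 0.966). With each border moved 500 kb toward the centre, which puts that first bin into the left arm, the ratio was 0.954 (0.833 to 1.09). The mean over bins was 37.1 ± 11.5 peaks per Mb in the arms (SD over 19 bins) and 46.0 ± 25.5 in the centre (SD over 21 bins).

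**Figure D1:**
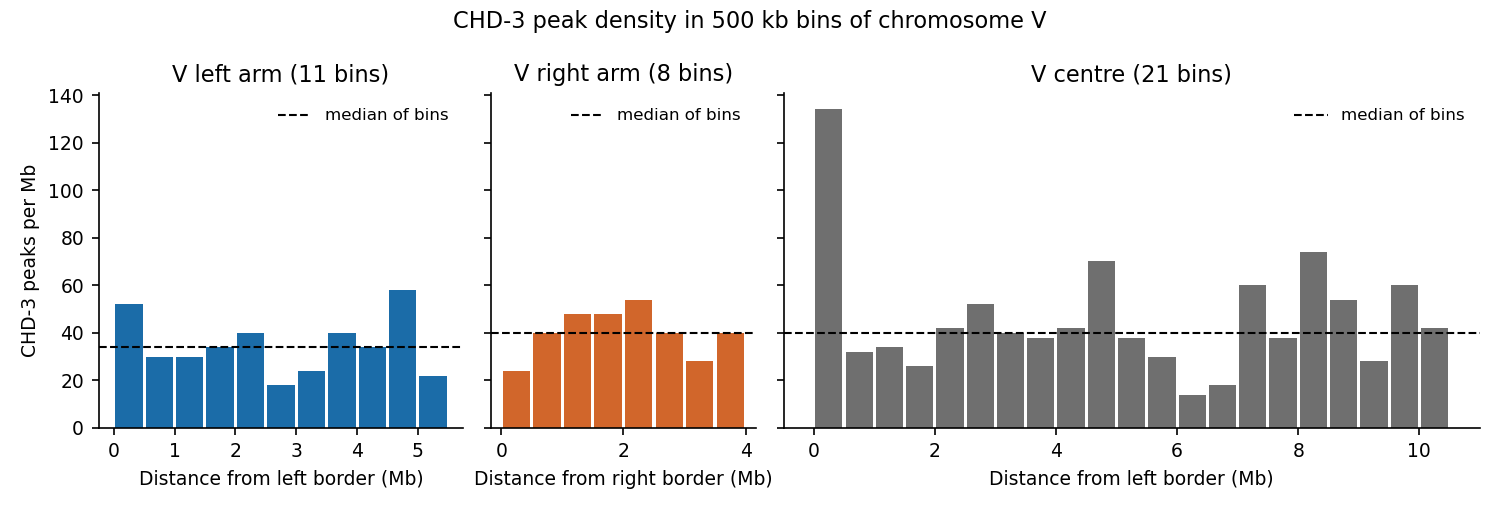
Bars give CHD-3 peaks per Mb (vertical axis) in full 500 kb bins against distance from a border of the arm in Mb (horizontal axis) for the left arm, the right arm and the centre of V, with the median of the bins as a dashed line. Arm bins lie between 18 and 58 peaks per Mb, and the first bin of the centre stands apart at 134.

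Along the left arm the bins were uneven. Its median bin held 34 peaks per Mb, with 52 in the bin next to the border, 18 in the sixth bin from it and 58 in the tenth. The remaining 0.40 Mb at the left tip held 5 peaks, or 12.5 per Mb (4.06 to 29.2). In the right arm the bins ran from 24 to 54 peaks per Mb with a median of 40, and the last 0.332 Mb held 12 peaks, or 36.2 per Mb (18.7 to 63.2). The outer 2.95 Mb of the left arm had 32.2 peaks per Mb and the inner 2.95 Mb 34.2. In the right arm the outer 2.17 Mb had 39.7 peaks per Mb and the inner 2.17 Mb 40.2. In both arms the outer and inner parts differed by less than the counting intervals.

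Stretches without peaks and crowded windows were both part of the arms. Of 59 windows of 100 kb in the left arm, 6 held no peak, as did 1 of 43 in the right arm and 13 of 106 in the centre. These shares were 6.86% for both arms (2.80 to 13.6%) and 12.3% for the centre (6.69 to 20.1%), so the lower density of the arms did not come with a larger share of empty windows. Windows with 10 or more peaks were 5 of 102 in the arms and 9 of 106 in the centre. The fullest window of the left arm, 1200001 to 1300000, held 13 peaks with a median score of 77.3, and the next held 9 (5500001 to 5600000) and 8 (3500001 to 3600000). In the right arm 11 peaks lay in 20350001 to 20450000, 10 in 17950001 to 18050000 and 10 in 18850001 to 18950000. The median scores of these 3 windows were 112.7, 75.4 and 68.3. The fullest window of the centre held 35 peaks.

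The longest stretches without a peak in the left arm measured 217.1 kb (after base 267344), 194.7 kb (after 5076825) and 181.9 kb (after 3252579). Those of the right arm were shorter, at 158.9 kb (after 16936604), 152.9 kb (after 20087181) and 122.3 kb (after 19366174). The longest of the centre was 263.4 kb. The 181.9 kb gap of the left arm ended at the widest peak of that arm. The 217.1 kb and 194.7 kb gaps each began at another of its 5 widest.

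Arm peaks were narrower than centre peaks. At the median they measured 297 bp in the arms (95% binomial interval 274 to 323) and 357.5 bp in the centre (331 to 386), a difference of -60.5 bp (-97.1 to -23.4). Over the other chromosomes the median width was 327 bp (321 to 336). The middle 50% of widths ran from 218 to 494 bp in the arms and from 245.75 to 625.75 bp in the centre. Between the arms the medians were 308.5 bp on the left (285 to 349) and 280 bp on the right (251 to 318), and the difference of 28.5 bp had an interval of -16.2 to 78.3. It was 50.5 bp (3.70 to 98.6) with each border moved 500 kb toward the centre, and 25.5 bp (-27.0 to 81.1) toward the ends. The 90th percentile of width was 928.2 bp in the arms and 1017.8 bp in the centre. Widths of at least 500 bp belonged to 24.9% of arm peaks and 33.4% of centre peaks, a difference of -8.47 points (-14.6 to -2.15). Peaks of 1000 bp or more were 34 of 369 in the arms, or 9.21% (6.47 to 12.6%), and 53 of 488 in the centre, or 10.9% (8.24 to 14.0%). They made up 38.6% of the covered length in the arms and 36.4% in the centre. Of the peaks on the other chromosomes, 9.48% measured 1000 bp or more.

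The deposited score was lower at the median in the arms as well, and spread further at the top. Its scale is not named in the file, and its lowest value in the whole list was 50. The median was 106.7 in the arms (97.9 to 118) and 126.6 in the centre (112.4 to 140.8), a difference of -19.95 (-36.6 to -1.78). Over the other chromosomes it was 116.1 (112.0 to 120.1), a value inside the interval of the arms. Scores under 100 belonged to 174 arm peaks, or 47.2% (42.0 to 52.4%), and to 194 centre peaks, or 39.8% (35.4 to 44.2%). The 90th percentile was nonetheless 830.2 in the arms and 712.1 in the centre. The left arm had a median of 107.5 (97.6 to 130.2) and the right arm 104.7 (85.1 to 126.4), which differed by less than their intervals. Their 90th percentiles were 1124 on the left and 496.3 on the right, against 627.2 over the other chromosomes. Without the first 500 kb of the centre the difference between arms and centre was -11.8 in score (-29.7 to 4.96) and -48 bp in width (-89.9 to -13.9). Among the higher-scoring 50% of the whole list the median score was higher in the arms, at 306.1 for 167 arm peaks and 238.3 for 260 centre peaks (difference 67.8, -26.5 to 147.9). Over the whole list the difference in score was -4.94 (-22.8 to 13.1) with the borders moved 500 kb toward the centre, -18.2 (-31.6 to 0.624) with them moved as far toward the ends, and -15.2 (-30.2 to 2.99) without the fullest 100 kb window of V.

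**Figure D2:**
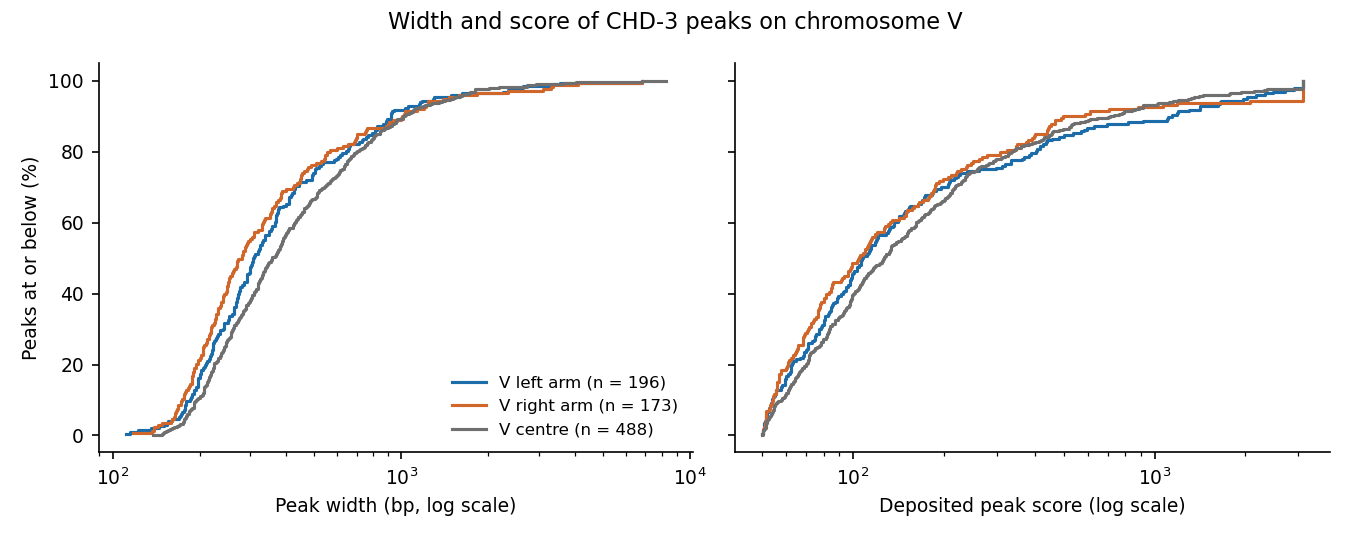
The share of peaks in percent at or below a given width in bp (left panel) or deposited score (right panel), both on log axes, is drawn as a line for the left arm (196 peaks), the right arm (173) and the centre (488). Both arm lines lie to the left of the centre line over the lower part of each plot, with median widths of 308.5 and 280 bp in the left and right arm against 357.5 bp in the centre. At the top of the score panel the lines part, with 90th percentiles of 1124 and 496.3 in the left and right arm against 712.1 in the centre.

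Width and score went together in the arms, with Spearman's rho 0.88 and Pearson's r 0.80 across 369 peaks that share a library, against 0.88 and 0.75 in the centre. Widths were therefore also read within the score quartiles of the whole list. In the lowest quartile, scores from 50 to 72.32, the median was 195 bp for 104 arm peaks (188 to 203) and 213 bp for 113 centre peaks (204 to 222). In the second the medians were 269 bp for 98 arm peaks (259 to 281) and 281 bp for 115 centre peaks (264 to 303). In the third, scores from 116.05 to 241.87, they were 388.5 bp for 76 arm peaks (365 to 427) and 450 bp for 133 centre peaks (408 to 479). In the highest they were 887 bp for 91 arm peaks (753 to 947) and 847 bp for 127 centre peaks (779 to 967), with overlapping intervals. There the left arm had 844.5 bp (734 to 926) and the right arm 905 bp (705 to 1201). The third quartile held 20.6% of the arm peaks (16.6 to 25.1%) and 27.3% of the centre peaks (23.3 to 31.4%), and the lowest held 28.2% and 23.2%.

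**Figure D3:**
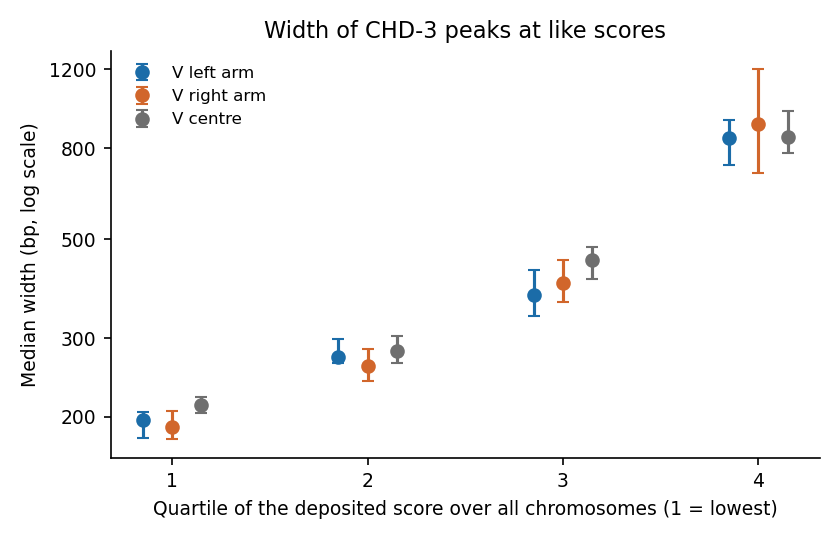
Points give the median width in bp (log axis) of the peaks in each quartile of the deposited score over all chromosomes, for the left arm, the right arm and the centre of V, and bars are 95% binomial intervals of the median. In the lowest quartile the medians are 197 and 190 bp in the left and right arm against 213 bp in the centre, and in the highest they are 844.5 and 905 bp against 847 bp.

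Neighbouring peaks lay further apart in the arms. The median distance between neighbouring midpoints was 10931.5 bp over 367 pairs in the arms (7770 to 14868) and 4324 bp over 487 pairs in the centre (3070.5 to 5819.5), a difference of 6607.5 bp (3110 to 10739). It was 12020.5 bp in the left arm (7191.5 to 19596) and 9694.5 bp in the right arm (5893 to 14543.5), with overlapping intervals. Over the other chromosomes it was 6000.25 bp (5391 to 6713). Neighbours within 2000 bp made up 28.9% of the pairs in the arms (24.3 to 33.8%) and 41.1% in the centre (36.7 to 45.6%), a difference of -12.2 percentage points (-18.6 to -5.57). The left and right arm had 30.3% and 27.3%, and the other chromosomes 37.5%. Without the first 500 kb of the centre the spacing difference was 5073.5 bp (169 to 9298). The share of close neighbours in the centre was then 35.5%, and the difference of -6.59 points had an interval of -13.2 to 0.135. With the borders moved 500 kb toward the centre the differences were 2162.5 bp in spacing (-2153 to 5811) and -0.884 points in close neighbours (-7.48 to 5.70). At the other end, 20.2% of the pairs in the arms (16.2 to 24.6%) and 15.6% in the centre (12.5 to 19.1%) were more than 50000 bp apart.

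**Figure D4:**
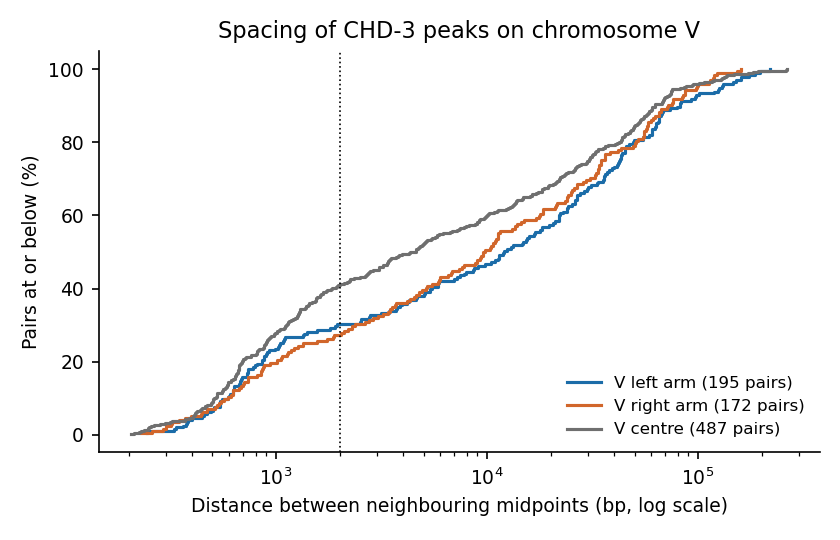
Lines give the share of neighbouring pairs in percent (vertical axis) whose midpoints lie at or below a given distance in bp (log axis) for the left arm (195 pairs), the right arm (172) and the centre (487), with a dotted line at 2000 bp. At 2000 bp the arm lines stand at 30.3% and 27.3% and the centre line at 41.1%.

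The 369 arm peaks were sorted by their surroundings. A total of 150, or 40.7% (35.6 to 45.9%), had another peak less than 500 bp away, against 47.5% of the centre peaks (43.0 to 52.1%). Another 92, or 24.9% (20.6 to 29.7%), were lone peaks with no neighbour's midpoint within 10000 bp and none less than 500 bp away, against 18.6% in the centre (15.3 to 22.4%). Arm peaks with a close neighbour had a median width of 333 bp (297 to 380) and a median score of 120.2, and lone arm peaks had 268.5 bp (235 to 302) and 96.4. In the centre the lone peaks had a median width of 336 bp (295 to 425) and a median score of 127.7. Joining close peaks left 282 regions in the arms, of which 219 were single peaks, 63 held several and 13 held 3 or more. In the centre 32 of 336 regions held 3 or more.

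The largest runs of close peaks in the arms held 6 peaks. The largest run of the centre held 31 and was the one in its dense first bin. The contrast in largest run rests on that run alone. A run from 17384185 to 17394589 in the right arm joined 6 peaks over 10.4 kb, of which 95.7% lay inside peaks, with a median score of 2143. The other run of 6, from 20433565 to 20438280, spanned 4.72 kb with a median score of 255.1. In the left arm 5 peaks were joined from 1254258 to 1258562 (4.30 kb, median score 417.2), 5 from 1834515 to 1837604 (3.09 kb, median score 98.9) and 4 from 723791 to 727841 (4.05 kb, median score 138.6). The third run of the right arm, from 17805966 to 17807425, joined 3 peaks over 1.46 kb.

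The highest scores of the arms were tied at 3100, a value shared by 14 arm peaks and 10 centre peaks. They were 3.79% of the arm peaks (2.09 to 6.28%) and 2.05% of the centre peaks (0.987 to 3.74%). The right arm had 10 of the 14, or 5.78% of its peaks (2.81 to 10.4%), and the left arm 4, or 2.04% (0.559 to 5.14%). In the whole list 113 peaks, or 2.29% (1.89 to 2.74%), scored 3100 or more. Tied peaks cannot be ranked among themselves by score. Higher values occurred elsewhere in the list, up to 3174, so whether 3100 marks a limit of the scale is not known. The 10 widest of them were named. In the right arm these ran from 17119885 to 17126706 (6822 bp), from 17128098 to 17132190 (4093 bp), from 17391230 to 17394589 (3360 bp), from 17387879 to 17391171 (3293 bp), from 17308582 to 17311680 (3099 bp) and from 16707108 to 16709453 (2346 bp). The first 5 of these were also the widest of the right arm. In the left arm they ran from 3434508 to 3441316 (6809 bp), from 4333161 to 4336710 (3550 bp), from 5283223 to 5285856 (2634 bp) and from 264982 to 267344 (2363 bp). With the peak from 5073526 to 5076825 (3300 bp, score 2897) they were the 5 widest of the left arm.

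Most peaks of the right arm at 3100 were crowded into 300 kb. The stretch from 17100001 to 17400000 was chosen after its values were seen, as the 300 kb with most peaks at 3100. Width and score go together in this list. The scores, widths and covered length of the stretch are therefore a description and not separate results. It held 13 of the 173 peaks of that arm but 8 of its 10 peaks at 3100 and 8 of its 18 peaks of 1000 bp or more. Its peaks covered 27.2 kb, or 9.06% of the stretch, which was 30.6% of all covered length in the right arm. The right arm outside it was 1.53% covered, with a median width of 265.5 bp (243 to 295) and a median score of 97.9. Peak number did not set the stretch apart, at 43.3 per Mb inside and 39.7 per Mb outside. Of its 13 peaks, 4 lay between 17115403 and 17132190, all at 3100, and 6 formed the run that ended at 17394589. In the left arm the 4 peaks at 3100 lay in 3 different bins and the tip, and the nearest pair of them was 891.8 kb apart.

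The edges of the arms were described by single peaks. The first peak of V started at base 1 and ended at base 376 with a score of 1417. The last ran from 20881658 to 20881846 with a score of 60.9. At the left border the last arm peak was 5845572 to 5846194 (623 bp, score 333.4), and the first centre peak was 5932386 to 5932636 (251 bp, score 70.8). At the right border the first arm peak was 16552727 to 16552920 (194 bp, score 135.1), and the last centre peak, 16547109 to 16548622 (1514 bp, score 3094), lay less than 5000 bp from it. A strong peak thus fell outside the right arm by the choice of border.

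Set beside the other chromosomes, V had the lowest density at its ends. The outermost 28.3% on the left and 20.7% on the right of each span, the fractions that the arms take on V, were compared with the remainder. These fractions are not the arm borders of the other chromosomes. The arms of V had 36.1 peaks per Mb and its centre 45.8. On the 5 other chromosomes the ends had 46.7 to 72.5 peaks per Mb and the centres 40.4 to 51.4. The ratio of ends to centre was 0.787 on V (0.686 to 0.903) and ran from 1.06 on I (0.920 to 1.22) to 1.43 on IV (1.27 to 1.62) on the others, so V was the chromosome with a ratio below 1. In 500 kb bins the other chromosomes had a median of 48 peaks per Mb over 156 bins, and 57 of these bins were at or below the median arm bin of V. With 1 list and 6 chromosomes no test of this difference was made.

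Narrower peaks at the ends were not limited to V. The difference in median width between ends and centre was -60.5 bp on V, -94.5 bp on III (-123.2 to -44.4), -44 bp on IV (-74.0 to -11.4), -36.5 bp on II (-87.8 to 10.0) and -26.5 bp on I (-63.4 to 2.95). On X it was 23 bp (-24.4 to 70.0). The median score was also set against that of the centre. The difference was -19.95 on V, -22.0 on III (-40.8 to -3.91), -15.2 on IV (-33.7 to -1.31), -9.38 on II (-32.1 to 24.3), 4.31 on I (-18.7 to 22.8) and 15.9 on X (-2.12 to 39.4). The arms of V held 14 peaks at 3100 or more, and the ends of the others held 15 on X, 9 on I, 6 on III, 6 on IV and 5 on II. The centres held 10 on V, 10 on X, 14 on I, 9 on III, 9 on IV and 6 on II. These are counts, and the ends differ in their number of peaks.

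**Figure D5:**
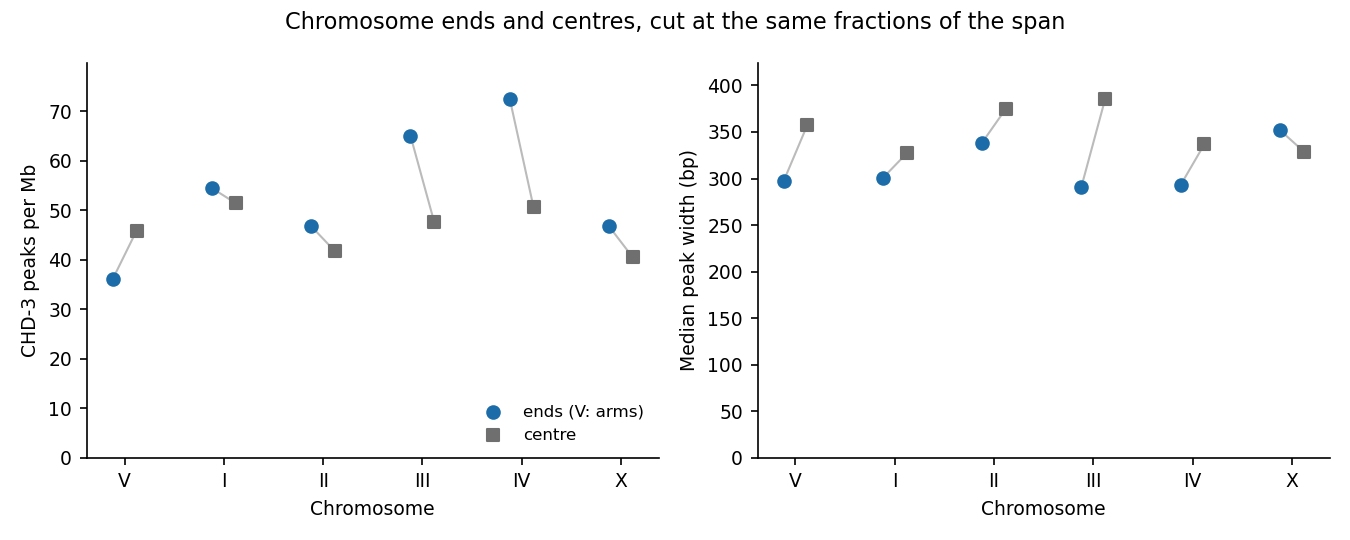
Circles give the ends (on V the arms) and squares the centre of each chromosome, for peaks per Mb (left panel) and median peak width in bp (right panel). On V the ends lie below the centre in density, at 36.1 against 45.8 peaks per Mb, while on the 5 other chromosomes they lie above it, and the ends have the narrower median width on V, I, II, III and IV.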

How the data were processed

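ChIP-seq for CHD-3 and an input DNA library were made from ground adult worms fixed with 1% formaldehyde for 10 minutes, per the labels' protocols, and 1 peak list of the ChIP sample was analysed. Peaks were called by MACS on WormBase WS220, per the file headers and source column. BWA and the build ce10 are named in the submitters' processing notes. The caller's version, threshold, control and any pooling are, in the sources used here, not given. The score deposited by the authors for each peak has no named scale and served to describe, rank and filter peaks of this list. The members and measures were chosen with earlier results of these data known. Midpoints, widths (last minus first base plus 1), distances and joined regions were computed with Python 3.11.15, numpy 2.4.6, pandas 2.3.3 and scipy 1.17.1. Intervals at 95% were exact Poisson for counts, exact conditional binomial for ratios, Clopper-Pearson for shares and binomial order statistics for medians. For differences the intervals of both values were combined. No test across peaks was run. The peaks named were the 10 highest scores (ties by width), the 5 widest, the 3 largest runs, gaps and windows of each arm, and those at its edges. Alternatives changed the peaks used, the borders, the dense windows and the distance and width limits.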

Additional observations from a re-analysis of the deposited data

How the results depend on the processing

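Of 94 alternative values for 12 comparisons, 74 kept their direction within the interval reported, 9 kept it outside that interval and 11 turned. The 74 include 12 comparisons of left with right arm that could not change, since only centre peaks were left out. No paired analysis was possible because the list is 1 sample and the input has no values here. The difference in median width between arms and centre stayed negative throughout, from -95.5 to -35.5 bp, and the ratio of densities stayed below 1, from 0.669 to 0.954. Borders moved 500 kb toward the centre put the bin with 134 peaks per Mb into the left arm by construction. That gave 0.954 for the density of arms over centre, 1.06 for left over right, 2162.5 bp for arms minus centre and -5249 bp for left minus right in spacing, -0.884 and 15.8 points in neighbours within 2000 bp, and 1.97 points for arms minus centre in peaks of 1000 bp or more. The difference in median score was then -4.94 (-22.8 to 13.1), against -19.95 as reported. With the higher-scoring 50% of the list the density ratio of arms to centre was 0.669. The median score was then higher in the arms by 67.8 (-26.5 to 147.9), with 68.3 for left minus right. The spacing differences over the fewer peaks kept were 22168.5 bp for arms minus centre and 16178 bp for left minus right. Left minus right was -8 bp in width and -7.56 points in close neighbours. A neighbour distance of 5000 bp gave -1.59 points for left minus right. A width limit of 500 bp gave -8.47 points for arms minus centre and 2.32 for left minus right, and a limit of 2000 bp gave 1.27 and 0.103. Without the 300 kb stretch of the right arm, left minus right in peaks of 1000 bp or more was 1.91 points. Left minus right in median width was then 43 bp (5.28 to 89.3), though that stretch was chosen after its values were seen. The cause of these changes was not tested. Density, score and the share of close neighbours of arms against centre are limited by the borders and the dense stretch of the centre. Median spacing is limited by the borders and by joining close peaks, which gave 6191.75 bp (-797 to 11484). Under the border shift and without the dense stretch the difference in width kept an interval below 0, at -35.5 bp (-76.2 to -0.986) and -48 bp (-89.9 to -13.9). With the higher-scoring 50% of the list the width difference was -59.5 bp (-138.8 to 67.3), an interval that includes 0. Depth could not be examined.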
